A study of Mus musculus with 6 samples.

Results

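One-direction promoters of protein-coding genes were examined in the accessible chromatin of astrocytes from mouse primary visual cortex (V1). A transcription start site (TSS) was taken as the 5′ end of a GENCODE protein-coding gene on mm10, and it was called one-direction when no protein-coding TSS of the opposite strand lay within 1000 bp. The ATAC-seq peaks of 6 libraries were merged wherever they overlapped, which gave 185015 regions, and 12386 of them (6.69% of the regions and 13.4% of their bases) reached into the 500 bp on either side of a one-direction TSS. A further 1223 regions lay at bidirectional TSSs, where a pair of coding genes start head to head, 171406 lay at neither, and no region was in both promoter classes.

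The study asked how loss of the glucocorticoid receptor (GR, gene *Nr3c1*) from astrocytes changes their chromatin. All mice carried floxed GR alleles (*GR*fl/fl) and were injected on P0 or P1 with an AAV2/5 virus in which the astrocyte promoter GfaABC1D drove Cre in the GR-KO group and ΔCre, which lacks recombinase activity, in the GR-con group, joined in both vectors to T2A-EGFP-KASH-4x6T. Each of the 3 GR-con and 3 GR-KO libraries held 50000 DRAQ5+ and GFP+ nuclei sorted from V1 at P21, from 3 to 4 pooled mice by the labels, so the groups share the floxed alleles, the vector and the sort. Deletion therefore reaches only nuclei that the virus entered and in which GfaABC1D was active.

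ATAC-seq uses the Tn5 transposase, which inserts sequencing adapters where DNA is not wrapped in nucleosomes, so a peak marks accessible DNA. Active promoters have a nucleosome-depleted stretch just upstream of the TSS, and most promoters of genes used in every cell lie in CpG islands, whereas many tissue-restricted genes have CpG-poor promoters. GR is a hormone-activated transcription factor that mostly binds enhancers away from promoters, at an imperfect palindrome around the core ACANNNTGT, and raises or lowers transcription of its target genes.

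The lists gave for each peak a fold, which is summit coverage divided by the background around the peak, and a −log10 p. Libraries held 179462 to 198929 peaks. Coverage and local background were solved from each peak's fold and −log10 p, and coverage came out whole, within 0.05, at 100% of the 1116429 peaks. The library-wide background, the only value here that speaks to depth, was 4.29, 4.31 and 4.92 tags in GR-con 1, 2 and 3 and 4.54, 4.28 and 4.34 tags in GR-KO 1, 2 and 3. GR-con 3 was therefore the library with the highest background and also had the longest peak list. These coverages are tag pile-ups on the scale of each library, and they were put on a shared scale in 3 ways, by the library-wide background, by the median over regions and by matching quantiles.

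Sequences are shown for 6 promoters on which the results turn, as the 250 bases that end just before the TSS, read in the direction of transcription from the GRCm38 (mm10) genome. None of these bases is in an annotated exon. The first group are promoters whose accessibility was lower in GR-KO: *Etnppl* (chr3:130617198-130617447, plus strand), *Sult1a1* (chr7:126676433-126676682, minus strand) and *Slc10a6* (chr5:103629404-103629653, minus strand). *Tnc* (chr4:64047016-64047265, minus strand) was higher in GR-KO by summit coverage. *Gpt2* (chr8:85492326-85492575, plus strand) rose by fold but not by coverage, and *Rplp0* (chr5:115559217-115559466, plus strand), for a ribosomal protein, stands for a housekeeping promoter that was not called. Capitals mark every match, on either strand and overlaps included, of the 13 motifs whose letters are given with their shares among all promoters.
Etnppl: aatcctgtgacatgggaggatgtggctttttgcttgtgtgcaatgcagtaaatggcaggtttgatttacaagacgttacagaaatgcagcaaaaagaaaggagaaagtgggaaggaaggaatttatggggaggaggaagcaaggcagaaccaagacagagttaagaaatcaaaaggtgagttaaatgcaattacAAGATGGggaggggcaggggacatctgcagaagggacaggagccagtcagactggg
Sult1a1: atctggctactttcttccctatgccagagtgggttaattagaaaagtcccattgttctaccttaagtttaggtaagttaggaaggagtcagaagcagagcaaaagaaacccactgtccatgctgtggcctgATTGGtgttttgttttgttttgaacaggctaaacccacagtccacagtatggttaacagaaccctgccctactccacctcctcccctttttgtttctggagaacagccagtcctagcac
Slc10a6: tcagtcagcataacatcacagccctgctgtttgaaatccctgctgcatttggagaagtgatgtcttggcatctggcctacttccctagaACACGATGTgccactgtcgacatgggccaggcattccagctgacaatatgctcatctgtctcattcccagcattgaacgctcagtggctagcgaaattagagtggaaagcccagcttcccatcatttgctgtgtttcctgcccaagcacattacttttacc
Tnc: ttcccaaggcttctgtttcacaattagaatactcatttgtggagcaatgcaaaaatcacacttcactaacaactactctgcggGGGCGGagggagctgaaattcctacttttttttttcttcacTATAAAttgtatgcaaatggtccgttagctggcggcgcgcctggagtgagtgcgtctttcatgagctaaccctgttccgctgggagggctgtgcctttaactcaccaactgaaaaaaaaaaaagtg
Gpt2: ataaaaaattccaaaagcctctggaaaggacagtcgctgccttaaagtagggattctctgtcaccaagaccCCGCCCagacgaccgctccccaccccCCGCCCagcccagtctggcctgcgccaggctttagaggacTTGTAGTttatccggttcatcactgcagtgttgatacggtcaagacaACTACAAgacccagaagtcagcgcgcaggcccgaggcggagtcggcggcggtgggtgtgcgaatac
Rplp0: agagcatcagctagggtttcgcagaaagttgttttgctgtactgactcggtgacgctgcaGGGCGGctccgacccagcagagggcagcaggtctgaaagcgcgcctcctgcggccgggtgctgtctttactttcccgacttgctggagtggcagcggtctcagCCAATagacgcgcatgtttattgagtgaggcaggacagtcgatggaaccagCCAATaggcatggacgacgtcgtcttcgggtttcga

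The *Slc10a6* stretch holds one ACANNNTGT match, from 161 to 153 bases before the TSS, and the other 5 stretches hold none. *Tnc* has a GC box (GGGCGG) and a TATAAA match from 126 to 121 bases before the TSS, and *Rplp0* has a GC box, a pair of CCAAT boxes and a CpG observed over expected ratio of 0.928. The *Sult1a1* stretch, by contrast, has a ratio of 0 over the window from 250 bases before to 50 bases after the TSS, and *Etnppl* has 0.139. The 6 promoters thus run from CpG-free to CpG-rich, and a motif match is a match of letters, not a bound site.

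Of the 19556 one-direction TSSs, 11613 had a region within 500 bp and 10586 (54.1%) had a peak in all 6 libraries. The other 7943 (40.6%) had no peak in any library. For 897 of these 7943 genes (11.3%) a region lay at another annotated coding transcript start of the same gene, which left 7046 genes (36.0% of all one-direction genes) with none at either. At bidirectional TSSs only 4.49% of 2382 had no peak. A noncoding partner went with the same pattern: of 1339 one-direction TSSs with an opposite-strand noncoding TSS within 1000 bp, 12.2% had no peak, against 42.7% of the 18217 without one. On the X chromosome 54.7% of 887 one-direction TSSs had no peak, and on the autosomes 39.4% of 18486.

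The share of one-direction TSSs with a peak was 56.8, 56.8 and 57.0% in GR-con 1, 2 and 3 and 56.7, 56.4 and 56.5% in GR-KO 1, 2 and 3. Every GR-KO library thus lay below every GR-con library, by 0.341 percentage points on average (56.9 ± 0.138% against 56.5 ± 0.166%, SD, n = 3; exact permutation test, two-sided, p = 0.1, the smallest that 3 against 3 libraries can give). With lists cut to equal length the difference was −0.140 points (exact permutation test, p = 0.4), and with a 1000 bp window −0.360 (p = 0.2), so the groups then overlapped. At bidirectional TSSs the shares were 94.8 ± 0.106% and 94.7 ± 0.280% (SD, n = 3; exact permutation test, p = 1).

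Gene families differed in how many promoters were open, where 54.1% of all one-direction TSSs had a peak in all 6 libraries and 40.6% had none. Receptors of the olfactory system were nearly all closed: 1118 of 1134 one-direction olfactory receptor TSSs, 329 of 330 vomeronasal receptor TSSs and 15 of 15 trace amine receptor TSSs had no peak in any library. The epithelial families were alike, with 49 of 53 keratin TSSs and 40 of 42 beta-defensin TSSs without a peak. Hox genes, which pattern the body axis, had a peak in all 6 libraries at 3 of 39 TSSs and in none at 22.

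Genes of the basic machinery of the cell had mostly open promoters. A peak was called in all 6 libraries at 43 of 45 one-direction TSSs of mitochondrial ribosomal proteins, 24 of 25 of respiratory complex I, 32 of 34 of general transcription factors, 32 of 38 of proteasome subunits and 62 of 75 of cytosolic ribosomal proteins. A further 33 mitochondrial ribosomal and 21 complex I genes start at bidirectional promoters and were not counted. Zinc finger genes were open in all libraries at 291 of 365 TSSs. Families with tissue-restricted members lay around the share of all one-direction TSSs (54.1%). Open in all 6 libraries were 204 of 353 solute carrier (57.8%), 55 of 94 potassium channel (58.5%) and 31 of 68 protocadherin TSSs (45.6%).

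Promoter sequence went with this division. The ratio of observed to expected CpG in the 300-base window had a median of 0.728 at one-direction TSSs with a peak in all 6 libraries, 0.394 at those with a peak in 1 to 5 and 0.172 at those with none. Bidirectional TSSs had a median of 0.821 and all 21938 protein-coding TSSs 0.525. Among one-direction TSSs with a ratio under 0.2, 8.53% of 5179 had a peak in all 6 libraries. The share was 30% of 3755 from 0.2 to 0.4, 66.2% of 2813 from 0.4 to 0.6, 87.7% of 3533 from 0.6 to 0.8, 94.1% of 3125 from 0.8 to 1.0 and 96.7% of 1151 at 1.0 and over. Median summit coverage at the open promoters followed the same order, from 99.75 tags in the lowest bin to 382 in the highest. At an equal CpG ratio a bidirectional TSS was more often open: under 0.2, 51.4% of 70 had a peak in all 6 libraries.

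**Figure D1:**
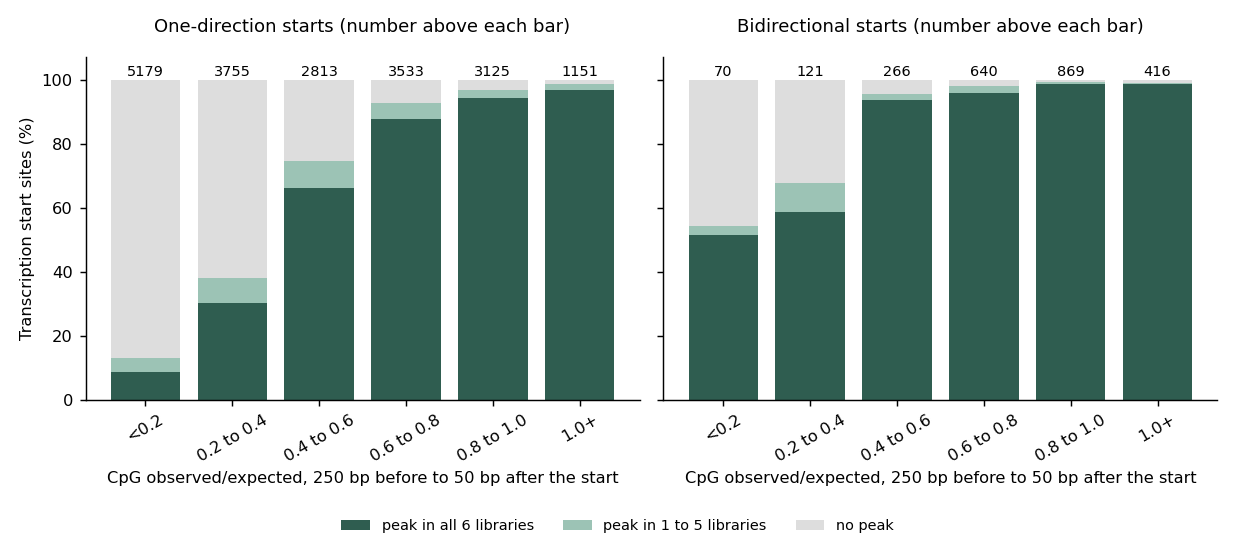
Share of TSSs (%) with a peak in all 6 libraries, in 1 to 5 or in none, by the ratio of observed to expected CpG in the window around the TSS, with the number of TSSs above each bar. At one-direction TSSs (left) the share open in all 6 libraries climbs from 8.53% in the lowest bin to 96.7% in the highest, and at bidirectional TSSs (right) it starts from 51.4%.

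The letters of known promoter elements were spread in the same way. Each motif was searched on both strands of the 300-base window, and the share over all 21938 protein-coding promoters stands first. GGGCGG, the GC box bound by SP and KLF factors, was in 43.0% of all promoters, 62.8% of the one-direction promoters open in all 6 libraries and 11.1% of those with no peak. CCGGAAG, an ETS site, was in 10.8, 14.5 and 2.49%, GCATGCGC of NRF1 in 3.71, 5.09 and 1.60%, TGACGTCA of CREB and ATF factors in 2.43, 3.37 and 0.856%, the E-box CACGTG in 7.75, 10.2 and 3.94% and the palindrome CTCGCGAG in 1.21, 1.70 and 0.138%. CCAAT was about equal, at 39.0, 38.2 and 40.3%, as were AAGATGG of YY1 (6.22, 6.29 and 5.78%) and ACTACAA of ZNF143 (3.70, 3.82 and 3.49%).

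Some other motifs were more frequent at closed promoters. TATAAA was in 12.6% of all promoters, 7.25% of open and 22.3% of closed one-direction promoters. On the sense strand alone, with its first base between 20 and 40 bp upstream of the TSS, it was in 2.42, 1.01 and 4.86%. The AP-1 site TGACTCA was in 4.59, 3.16 and 7.05%, ACANNNTGT, the GR core, in 5.83, 3.61 and 9.34% and ACTGTA, to which no factor is assigned here, in 8.39, 6.74 and 11.2%. Median GC content was 60% at open and 46.3% at closed one-direction promoters, and base composition alone changes how often such letters occur.

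Open one-direction promoters ranked high among all accessible regions but below bidirectional ones. In each library every region was ranked by its fold, and the median percentile of one-direction promoter regions was 83.4, 83.9 and 84.1 in GR-con 1, 2 and 3 and 85.0, 84.5 and 84.8 in GR-KO 1, 2 and 3. Bidirectional promoter regions stood 6.86 percentile points higher (91.2 ± 0.443 against 84.3 ± 0.605, SD, n = 6) and other regions 37.9 points lower (46.4 ± 0.150). The covered width had a median of 854 ± 21.3 bp at one-direction, 936 ± 21.9 bp at bidirectional and 334 ± 8.93 bp at other regions (SD, n = 6), and the mean number of summits was 2.43, 2.68 and 1.37. Both contrasts of each of these measures had the same sign in 6 of 6 libraries (exact sign-flip permutation test over 6 libraries, two-sided, p = 0.03125, the smallest it can give).

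**Figure D2:**
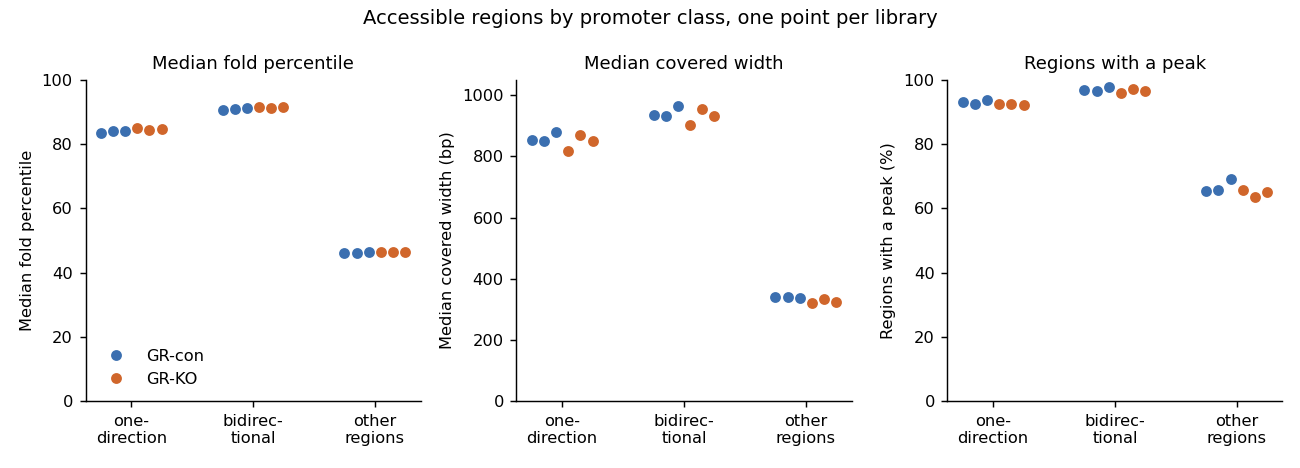
Median fold percentile, median covered width (bp) and share of regions with a peak (%), 1 point per library, for one-direction promoter, bidirectional promoter and other regions. In every library the one-direction promoters lie below the bidirectional ones and far above other regions, and the GR-con and GR-KO points of a class lie close together beside the gaps between classes.

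One-direction promoter regions were also called steadily. A peak was present in all 6 libraries at 10830 of 12386 (87.4%), against 94.4% of bidirectional and 45.7% of other regions. Another 604 had a peak in 1 library only, and the 11782 regions where 2 or more libraries had one (95.1%) were tested below. A region served 1 gene in 12234 cases, 2 genes in 148 and 3 genes in 4, and 893 TSSs had more than 1 region. Width ran from 150 to 2926 bp, with a median of 935 bp for the merged region.

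The 5 one-direction promoters of highest mean fold percentile were those of *Cdc25c*, a phosphatase that starts mitosis, *Kif22*, a chromosome-binding kinesin, *Setdb1*, a histone H3 lysine methyltransferase, *Espl1*, the protease that separates sister chromatids, and *L3mbtl2*, a Polycomb-group protein. The fold of *Cdc25c* was 35.6, 34.4 and 36.3 in GR-con 1, 2 and 3 and 36.0, 34.3 and 34.6 in GR-KO 1, 2 and 3. *Kif22* had 34.0, 36.7 and 35.8 against 36.1, 34.4 and 33.5. The 2 groups overlapped at both, and neither differed by limma (adjusted p = 0.988 and 0.982). The fold of all 5 lay between 32 and 36.7 in every library.

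Among the 5 widest promoters were the shared region of *Ctbp2*, a corepressor, and *Fgfr2*, a growth factor receptor, and those of *Fat3*, an atypical cadherin, *Nsd1*, a histone methyltransferase, and *Cpeb2*, which regulates mRNA translation. Their mean covered widths were 2835, 2644, 2515 and 2408 bp. Their folds were moderate: at *Fat3* 7.31, 6.68 and 7.14 in GR-con against 6.90, 6.95 and 7 in GR-KO. The groups overlapped there, and the local background was high, 30.5 to 35.2 tags in GR-con.

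Peaks at one-direction promoters were asymmetric about the TSS. The summit of the strongest peak lay at a median of 19.3 bp upstream (−19.3 ± 1.03 bp, SD, n = 6), against −32.5 ± 0.548 bp at bidirectional TSSs. It was upstream of 60.5 ± 0.535% of one-direction and 65.8 ± 0.302% of bidirectional TSSs, and within 100 bp of 61.9 ± 0.377 and 56.1 ± 0.313% (SD, n = 6). Among peaks that covered the TSS, the peak reached 334 bp upstream and 490 bp downstream of a one-direction TSS in the median, and 468 and 440 bp at a bidirectional TSS. The longer arm was downstream at 69.0 ± 1.03% of one-direction and 45.4 ± 0.815% of bidirectional TSSs (each contrast exact sign-flip permutation test over 6 libraries, p = 0.03125). None of these measures separated GR-con from GR-KO, with an upstream share of 60.5 ± 0.528% and 60.5 ± 0.660% (SD, n = 3; exact permutation test, p = 1).

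**Figure D3:**
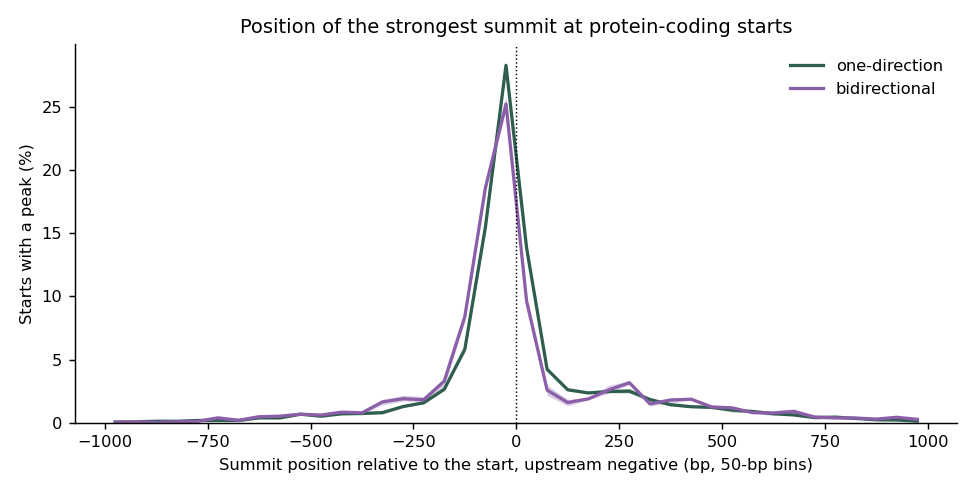
Share of TSSs with a peak (%) by the position of the strongest summit relative to the TSS in 50-bp bins (upstream negative), as the mean of 6 libraries with the range over libraries shaded. Both classes peak in the bin just upstream of the TSS, where one-direction TSSs reach 28.3%, and the bidirectional curve lies further upstream.

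The cell types behind these promoters were checked with marker genes. Of 11 astrocyte markers, 9 had a member region, each with a peak in all 6 libraries, and their median summit coverage ran from 175 to 556.5 tags. *Slc1a2*, the main astrocyte glutamate transporter, had 520, 550 and 493 tags in GR-con and 540, 552 and 482 in GR-KO. *Aqp4* and *Aldh1l1* had no region at the gene's 5′ end but one at another coding transcript start. Of 8 neuronal markers, 7 had a member region, 4 of them with a peak in all 6 libraries, and their median coverage ran from 21 to 68 tags. *Slc17a7* of excitatory neurons had a peak in 1 library only and *Gad1* of inhibitory neurons in none at the gene's 5′ end, though it too had a region at another coding start.

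Markers of other glia and of vessels were mixed. Among 9 oligodendrocyte-lineage markers, *Mog*, *Mag* and *Sox10* had no peak at the gene's 5′ end, while *Olig1*, with 366, 353 and 365 tags in GR-con and 351, 404 and 392 in GR-KO, *Olig2* and *Cnp* had peaks in all 6 libraries. Among 8 microglial markers, *Cx3cr1*, *Csf1r*, *Aif1*, *C1qa* and *Itgam* had none, and *P2ry12* and *Tmem119* had peaks in all 6. Of 7 one-direction endothelial and mural markers, *Cdh5* and *Tek* had none, *Pdgfrb* had 238 to 330 tags and the other 4 had 38 tags or fewer. Between the groups limma called 0 markers of neurons, oligodendrocytes, microglia or vessels by fold, by −log10 p or by coverage under all 3 scalings, and at an unadjusted p under 0.05 by fold 1 of 3 microglial and 1 of 5 vessel markers were higher (against 6.44% of all regions). *Tmem119*, with 19, 25 and 37 tags in GR-con and 42, 35 and 47 in GR-KO, was higher by coverage under the median and quantile scalings alone (adjusted p = 0.0395 and 0.0352). Of the astrocyte markers 0 were called by fold (2 of 9 higher at an unadjusted p under 0.05, against 6.44% of all regions) and 1, *Atp1b2*, was higher by −log10 p (against 1.05%). By coverage under all 3 scalings 0 of 9 were called (2.74 and 2.07% of all regions were lower and higher). *Atp1b2* was higher by coverage under the median scaling alone (limma adjusted p = 0.0104). Whether other cells in the sort took part in any result was not tested.

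The deleted gene gives no check of the deletion here. *Nr3c1* on chromosome 18 had no region at its 5′ end. Another coding start of the gene lay in a region with 421, 410 and 393 tags in GR-con 1, 2 and 3 and 378, 399 and 343 tags in GR-KO 1, 2 and 3. Coverage overlapped between the groups, while the fold did not, at 7.04, 7.02 and 6.64 against 6.28, 6.27 and 5.91, and nor did the −log10 p, at 205, 199 and 183 against 168, 177 and 145. The region was not called by coverage under any of 3 scalings (adjusted p = 0.743, 0.989 and 0.470 from limma), by fold (0.835) or by −log10 p (0.496). The position of the floxed segment was not used, and a promoter outside it says nothing about the deletion.

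GR-KO and GR-con were then compared at each region. Folds were ranked within each library, ranks were turned into normal scores and limma was fitted to the 140360 regions where 2 or more libraries had a peak. Of the 11782 one-direction promoter regions, 6 (0.0509%) were lower in GR-KO at an adjusted p under 0.05, against 0.214% of all regions tested, and 4 (0.0340%) were higher, against 0.11% of all. At an unadjusted p under 0.05, 272 (2.31%) were lower and 678 (5.75%) higher, against 6.30 and 6.44% of all regions. When any library was left out, 0 promoters were called in either direction, except 1 lower promoter, *Kcng2*, without GR-KO replicate 3. Calls were lost over all regions too, from 455 in both directions together to 0, 0 and 0 without GR-con replicate 1, 2 or 3. Without GR-KO replicate 1, 2 or 3 they numbered 2, 1 and 30. In these fits 224 to 295 promoters (1.92 to 2.52%) were lower and 459 to 628 (3.93 to 5.37%) higher at an unadjusted p under 0.05, against 6.03 to 6.39% and 5.39 to 5.91% of all regions. Ranking by −log10 p gave 42 lower (0.356%, against 1.12% of all regions) and 35 higher (0.297%, against 1.05% of all), and 6 of the 10 promoters called by fold were among them. Of the 10 called by fold, *Etnppl*, *Fam3b* and *Pcdha11* had peaks in 3 libraries of 1 group only and so passed the minimum of 2 libraries through the group where they were high. A lower signal may mean fewer nuclei with an open promoter or a less open promoter in each, and bulk libraries cannot tell these apart.

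*Kcng2*, a modifier subunit of voltage-gated potassium channels, had the smallest p. The GR-con libraries had folds of 20.6, 18.9 and 18.4 and the GR-KO libraries of 6.14, 7.38 and 7.11, and its summit coverage was 133, 127 and 119 tags against 33, 38 and 37. The groups were far apart in both values, and the score difference was −1.14 ± 0.0756 (SE; limma adjusted p = 0.00748, range over the alternatives 2.18e-16 to 0.129). Its summit lay 524 bp downstream of the TSS.

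At *Etnppl*, which encodes ethanolamine-phosphate phospho-lyase, all GR-con libraries and no GR-KO library had a peak. The GR-con peaks had a fold of 7.84, 8.34 and 6.55 and a summit coverage of 94, 105 and 60 tags, so the lowest was GR-con 3. The summit lay 63 bp downstream of the TSS, and the score difference of −1.70 rests on the lowest rank, given to the GR-KO libraries in place of a value. The CpG-poor stretch upstream of it is printed above.

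*Sult1a1*, a phenol sulfotransferase, fell in every library of GR-KO. Its fold was 19.6, 19.5 and 16.7 in GR-con and 3.25, 7 and 6.36 in GR-KO, and its summit coverage was 221, 196 and 164 tags against 17, 36 and 33. This was the largest coverage difference among the 10830 one-direction promoters with a peak in all 6 libraries, at −2.78 on the log2 scale when scaled by library background. The summit lay 5 bp upstream of the TSS in the stretch without any CpG. By fold rank the score difference was −1.32 ± 0.175 (SE; limma adjusted p = 0.0317, range over the alternatives 1.02e-39 to 0.170).

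*Slc10a6*, a sodium-dependent carrier of sulfated steroids, had folds in GR-con of 15.6, 16.3 and 15.6 and in GR-KO of 10.3, 8.14 and 9.17. Its coverage was 96, 106 and 97 tags against 56, 42 and 48, with no overlap, and the score difference was −0.57 ± 0.0749 (SE; limma adjusted p = 0.0309, range over the alternatives 1.53e-05 to 0.165). The summit lay at −269.5 bp from the TSS, just beyond the printed stretch. *Fam3b*, a secreted cytokine-like protein, had a weak peak in GR-con alone, with 28, 24 and 32 tags. The sixth, *1700028P14Rik*, had a fold of 22.3, 21.1 and 19.5 against 17.0, 15.7 and 15.0 and was called by fold (limma adjusted p = 0.0473, range over the alternatives 0.0335 to 0.172) but not by −log10 p (0.103) or by coverage (0.0699 to 0.154).

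The promoters called higher by fold looked different. *Txnip*, a thioredoxin-binding protein that limits glucose uptake, had folds in GR-con of 14.4, 15.3 and 13.7 and in GR-KO of 20.7, 20.3 and 19.1. Its summit coverage did not rise, at 528, 537 and 465 tags against 476, 479 and 429, and the local background was lower in GR-KO, at 22.0, 22.6 and 21.5 tags against 35.8, 34.2 and 32.9. The fold thus differed through its denominator. The score difference was 0.53 ± 0.0664 (SE; limma adjusted p = 0.0275, range over the alternatives 0.0141 to 0.942), and by coverage the difference was −0.11, −0.02 and −0.15 under the 3 scalings, with none called.

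The same held at *Gpt2*, the mitochondrial alanine aminotransferase, and at *Fam213a*, a peroxiredoxin-like protein. *Gpt2* had 493, 529 and 483 tags at the summit in GR-con and 484, 483 and 496 in GR-KO, with local backgrounds of 36.1, 34.6 and 30.7 against 22.4, 23.4 and 22.6. *Fam213a* had 405, 441 and 434 tags against 400, 401 and 393, with backgrounds of 28.0, 29.5 and 30.1 against 19.6, 20.8 and 18.1. Both were called by fold (limma adjusted p = 0.0418 and 0.0469, ranges over the alternatives 0.0226 to 0.993 and 0.0310 to 0.903) and neither by −log10 p (0.257 and 0.513). The fourth, *Pcdha11* of the protocadherin alpha cluster, had a weak peak in GR-KO alone, at 22, 23 and 21 tags, and its call was lost when no minimum of libraries was set (limma adjusted p = 0.0668, range over the alternatives 0.0103 to 0.184). *Ezh1*, a histone methyltransferase of PRC2, came next and was not called (adjusted p = 0.0522).

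Presence of a peak gave a similar picture. In every GR-con library and no GR-KO library a peak was called at 25 one-direction promoter regions (0.202%), against 0.902% of all merged regions, and in every GR-KO library and no GR-con library at 14 (0.113%), against 0.476% of all. Leaving out 1 library eases the rule, and the GR-con count was then 49, 56 and 39 without GR-con replicate 1, 2 or 3 and 52, 47 and 43 without GR-KO replicate 1, 2 or 3. The GR-KO count was 25, 27 and 23 and then 33, 30 and 33 in the same order. With a window of 1000 bp around the TSS the counts were 48 and 26, and with 250 bp 20 and 8. The same counts over all merged regions were not made for these settings, so nothing shows whether the change is particular to promoters. Peaks at the 25 and 14 promoters had a median fold of 3.32 and 2.90. After *Etnppl* and *Fam3b*, the GR-con promoters of highest fold were those of *Tmem182*, *Angpt4*, a ligand of the receptor Tie2, and *Kcnk2*, a potassium leak channel. *Angpt4* had 20, 19 and 28 tags, and *Kcnk2* 19, 20 and 23. After *Pcdha11*, the GR-KO promoters included those of *Adgre1*, a macrophage surface receptor, *Serpinb1a*, a protease inhibitor, and *Tacr1*, the substance P receptor, with 10 to 23 tags. None of these 6 was called by limma on fold ranks.

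Across all members the fold ranks shifted slightly up in GR-KO, and this depended on the value ranked. The mean score of one-direction promoter regions was 0.918 ± 0.0139 in GR-con and 0.950 ± 0.00742 in GR-KO (SD, n = 3), with every GR-KO library above every GR-con library (exact permutation test, two-sided, p = 0.1, the smallest possible). Ranked by −log10 p the difference was −0.000305. The median score difference by fold was 0.04 over members, positive at 64.9%, 0.05 over bidirectional promoter regions, positive at 71.5%, and 0.02 over all regions, positive at 53.2%. Fold ranks were higher in every GR-KO than in every GR-con library at 1785 members (15.2%, against 12.1% of all regions) and lower at 487 (4.13%, against 7.84%).

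Summit coverage, a measure added after the data were seen, separated the numerator of the fold from its background. At the 10830 promoters with a peak in all 6 libraries the median coverage was 288.5, 291 and 296 tags in GR-con 1, 2 and 3 and 282, 286 and 275 in GR-KO 1, 2 and 3. Over the library-wide background it was 65.0 ± 4.11 and 64.1 ± 2.41 (SD, n = 3; exact permutation test, p = 0.8). The median local background around these summits was 16.4 ± 0.736 tags in GR-con and 15.6 ± 0.290 in GR-KO (SD, n = 3; exact permutation test, p = 0.1), and over the library-wide background it was 3.65 ± 0.122 and 3.55 ± 0.156 (p = 0.5). Levels of coverage at these promoters were thus close in the 2 groups, and the number of calls depended on the scaling.

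Coverage was tested by limma over the 90301 regions with a peak in all 6 libraries. Scaled by library background, 128 members (1.18%, against 4.23% of all regions) were lower in GR-KO and 51 (0.471%, against 2.07%) higher. Scaled by the median, 88 (0.813%, against 2.93%) were lower and 442 (4.08%, against 4.87%) higher, and scaled by quantiles, 125 (1.15%, against 3.09%) were lower and 111 (1.02%, against 3.46%) higher. The split between directions therefore turned with the scaling, and only promoters called under all 3 are described further. These were 83 lower promoters (0.766%, against 2.74% of all regions) and 51 higher ones (0.471%, against 2.07%). Without GR-KO replicate 2, 53 lower and 20 higher remained under all 3 scalings, of which 50 and 20 were among the 83 and 51. The lower count was 56 without GR-con replicate 1, and the higher count was 27, 33 and 34 without GR-KO replicate 3, GR-KO replicate 1 and GR-con replicate 1. Called in every one of the 6 leave-one-out fits were 35 of the 83 and 10 of the 51. No count over all regions was made for these fits.

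**Figure D4:**
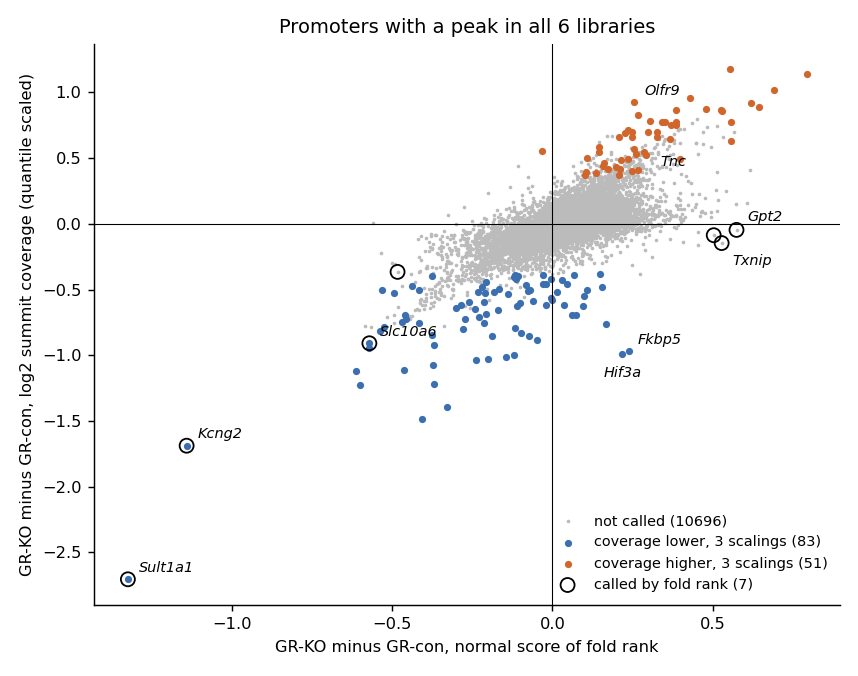
GR-KO minus GR-con difference of each one-direction promoter with a peak in all 6 libraries, as the normal score of its fold rank (horizontal) and as the log2 summit coverage scaled by quantiles (vertical), with the 83 lower and 51 higher promoters called under 3 scalings in colour and circles around 7 called by fold rank. *Sult1a1* and *Kcng2* are low on both axes, *Txnip* and *Gpt2* are high in fold rank at a coverage difference near 0, and *Fkbp5* and *Hif3a* are low in coverage with a positive fold difference.

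The 83 lower promoters differed by a median of −0.71 on the log2 scale (scaled by library background), from −0.38 to −2.78, and 18 of them by more than 1. At 67 the fold difference had the same sign and at 16 the opposite one. The 51 higher promoters differed by a median of 0.60, from 0.37 to 1.07, with 2 over 1, and 50 had a fold difference of the same sign. Median coverage in GR-con and GR-KO was 171 and 97 tags at the lower promoters, 100 and 148 at the higher ones, a difference that the choice of the sets builds in, and 292 and 281 over all members tested. Both sets were CpG-poor, with a median ratio of 0.392 at the 81 TSSs of the lower and 0.411 at the 53 TSSs of the higher promoters, against 0.728 over open one-direction TSSs. The strongest summit lay within 100 bp of the TSS at 51.8% of the lower, 45.1% of the higher and 62.1% of all members tested on coverage, a difference that was not tested.

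Within 100 bp of the strongest summit, ACANNNTGT was present at 8 of the 83 lower promoters (9.64%), at 3 of the 51 higher ones (5.88%), at 1.54% of the 10830 promoters and at 5.42% of all 90301 regions. ACTGTA was at 2 lower (2.41%) and 9 higher promoters (17.6%), against 3.12% of promoters and 7.02% of all regions. CACGTG was at 2 lower (2.41%) and 7 higher promoters (13.7%), against 7.83 and 3.66%, and GGGCGG at 37.3% of both, against 62.9 and 15.4%. TGACTCA (2.41 and 3.92%, against 1.78 and 3.89%) and TGACGTCA (2.41 and 1.96%, against 3.16 and 0.743%) were at 1 or 2 promoters of each set. The counts are small, and base composition differs between these sets.

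Textbook glucocorticoid-inducible genes were split. Of 14, *Dusp1* starts at a bidirectional promoter, *Cdkn1a* and *Errfi1* had a region only at another coding start, and 11 had a member region, 10 of them with a peak in all 6 libraries. By fold limma called 0 of 11 (1 lower and 6 higher at an unadjusted p under 0.05, against 6.30 and 6.44% of all regions), by −log10 p 1 was lower (against 1.12% of all regions), and by coverage 3 of 10 were lower under all 3 scalings and 0 higher (against 2.74 and 2.07% of all regions). The median coverage difference of the 10 was −0.06, 0.03 and −0.12 under the 3 scalings, against −0.05, 0.04 and −0.0008 over all regions, while the median score difference by fold was 0.16 over the 11, against 0.02 over all regions.

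*Fkbp5*, an immunophilin that holds GR in a low-affinity state and is a classical GR target, was the clearest of them. Its summit coverage was 268, 255 and 258 tags in GR-con 1, 2 and 3 and 141, 137 and 104 in GR-KO 1, 2 and 3. Its local background was 22.9, 20.9 and 20.4 against 8.45, 8.25 and 7.18 tags. Coverage and background were both well separated, while the fold went the other way, at 11.2, 11.7 and 12.1 against 15.0, 14.9 and 12.8. Coverage fell by 1.01 on the log2 scale (standard error 0.128, scaled by library background; adjusted p from limma 4.27e-12 to 5.43e-09 over 3 scalings, 0.00759 by −log10 p and 0.235 by fold). It was called in 6 of 6 leave-one-out fits. The strongest summit lay at −620.5 bp from the TSS.

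**Figure D5:**
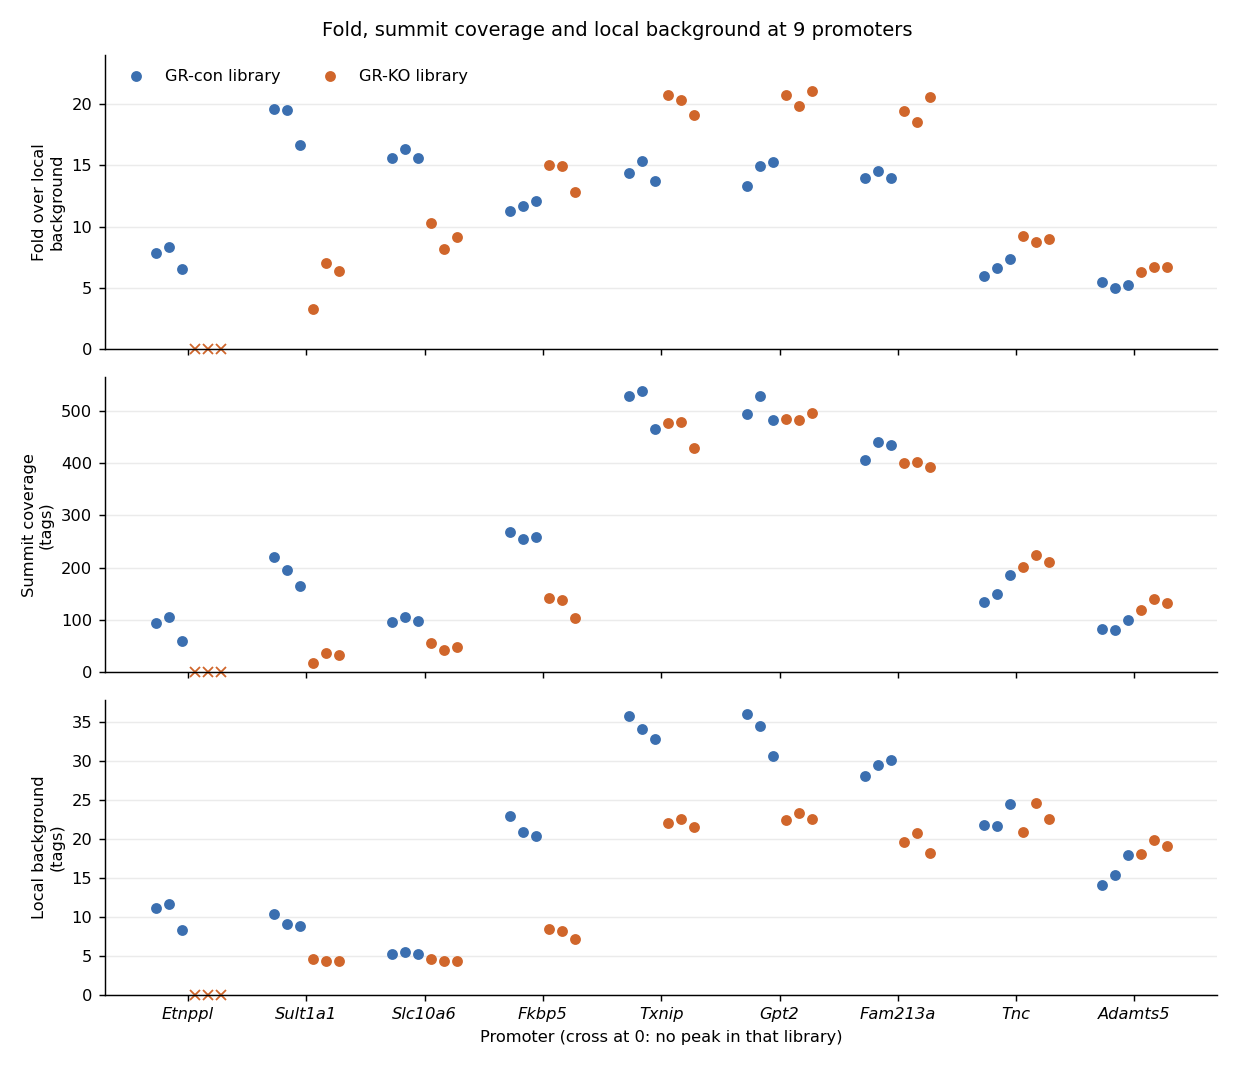
Fold over local background (top), summit coverage (middle) and local background (bottom), the last 2 in tags, at 9 promoters, 1 point per library, with a cross at 0 where no peak was called. At *Sult1a1* and *Slc10a6* fold and coverage are lower in GR-KO, at *Fkbp5* coverage and background are lower while fold is higher, and at *Txnip*, *Gpt2* and *Fam213a* the background alone is clearly lower.

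*Tsc22d3* (GILZ), which mediates anti-inflammatory actions of glucocorticoids, had 150, 128 and 137 tags in GR-con and 89, 93 and 97 in GR-KO, with no overlap (adjusted p from limma 0.0111 to 0.036 over 3 scalings, 0.263 by −log10 p and 0.924 by fold). It was lost in every one of the 6 leave-one-out fits. *Zbtb16*, a zinc finger repressor, had 276, 304 and 252 tags against 196, 173 and 200 (in the same order 0.000686 to 0.00582, 0.298 and 0.425) and was lost without GR-con replicate 2 or GR-KO replicate 2. *Sgk1*, a kinase, had a weak peak of 25, 22 and 26 tags in GR-con and of 15 and 11 tags in GR-KO 2 and 3, with no peak in GR-KO 1, and was not called by fold, where GR-KO 1 took the lowest rank (adjusted p = 0.202).

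The other inducible promoters were strong in both groups. *Per1*, a clock gene, had 713, 729 and 646 tags in GR-con and 725, 696 and 707 in GR-KO. *Mt1*, a metallothionein, had 571, 571 and 587 tags against 580, 548 and 462, and *Klf9* had 555, 544 and 521 against 541, 541 and 475. *Ddit4* had 626, 661 and 601 tags against 707, 645 and 679, and *Pdk4*, a kinase that restrains pyruvate oxidation, had 562, 627 and 598 against 684, 679 and 674. At *Pdk4* every GR-KO library was higher, at the others the groups overlapped. *Pdk4* was called higher when scaled by the median (adjusted p = 0.00624 from limma) and not by library background (0.273) or quantiles (0.134), and the others under none.

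Genes that the study's text names as activated by GR, or as astrocyte maturation genes tied to GR, differed in direction between the measures. For *Aldh1a1*, *Ezr*, *Fam107a*, *Gjb6* and *Etnppl* that text states no direction on loss of GR. The study took them from RNA of the same model. It also shows mouse astrocyte ATAC signal at *Etnppl*, and it raises *Zbtb16* after ZBTB motifs in GR-repressed sites of its P21 ATAC-seq, the experiment used here. The direction of the listed genes is therefore not independent evidence. Of 10, 9 had a member region and *Fam107a* had one only at another coding start. By fold 1 was lower (*Etnppl*, against 0.214% of all regions), 1 was lower and 1 higher at an unadjusted p under 0.05 (against 6.30 and 6.44%), and the median score difference was 0.06, against 0.02 over all regions. By coverage 3 of the 8 with a peak in all 6 libraries were lower (*Zbtb16*, *Cntn1* and *Prom1*) and 0 higher (2.74 and 2.07% of all regions), with a median difference of −0.40, −0.31 and −0.35 over the 3 scalings, against −0.05, 0.04 and −0.0008 over all regions.

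*Cntn1*, a neural adhesion molecule, had 195, 213 and 225 tags in GR-con and 182, 114 and 121 in GR-KO, with GR-KO 1 close to GR-con. It was lost without GR-KO replicate 2 or GR-KO replicate 3. *Prom1*, a membrane glycoprotein, had 201, 158 and 130 tags against 94, 93 and 88 and stood in 6 of 6 leave-one-out fits (adjusted p from limma 1.78e-05 to 0.000559 over 3 scalings). Neither was called by fold. *Gjb6*, a gap junction protein, had 230, 248 and 200 tags against 153, 171 and 191, and *Aldh1a1*, a retinaldehyde dehydrogenase, had 204, 223 and 167 against 140, 153 and 132. *Scrg1* had 229, 258 and 214 tags against 194, 179 and 182, *Fbln1* 193, 196 and 180 against 168, 162 and 155, and *Ezr* 387, 384 and 382 against 367, 405 and 330. None of these 5 was called under all 3 scalings, and *Aldh1a1* was lower by library background and quantiles (adjusted p = 0.0200 and 0.0417 from limma) but not by the median (0.0620).

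Genes named as repressed by GR are mostly of the extracellular matrix and its proteases, and the same reservation holds. Of 8, 7 had a member region with a peak in all 6 libraries and *Mmp2* had none. By fold limma called 0 (2 higher at an unadjusted p under 0.05, against 6.44% of all regions), with a median score difference of 0.17, against 0.02 over all regions. By coverage and by −log10 p 2 were higher (*Tnc* and *Adamts5*, where 2.07% of all regions were higher by coverage and 1.05% by −log10 p) and 0 lower, and the median coverage difference was 0.33, 0.42 and 0.42 over the 3 scalings, against −0.05, 0.04 and −0.0008 over all regions.

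*Tnc*, the matrix glycoprotein tenascin C, had 135, 149 and 186 tags in GR-con and 201, 223 and 211 in GR-KO, with a fold of 5.95, 6.62 and 7.34 against 9.19, 8.74 and 9. Coverage rose by 0.48 on the log2 scale (standard error 0.128, scaled by library background; adjusted p from limma 0.000263 to 0.00593 over 3 scalings, 0.0114 by −log10 p and 0.213 by fold). It was lost without GR-con replicate 1 or GR-KO replicate 2. *Adamts5*, an aggrecan-cleaving protease, had 82, 81 and 99 tags against 119, 139 and 133 and stood in 6 of 6 leave-one-out fits (in the same order 0.000327 to 0.00282, 0.0408 and 0.383). *Adamts9* had 331, 304 and 324 against 357, 383 and 353, *Adamts16* 46, 61 and 62 against 63, 97 and 87, and *Vcan*, a proteoglycan, 60, 58 and 104 against 86, 80 and 97. *Adamts12* had 99, 116 and 132 against 119, 112 and 103, and *Mmp14*, a membrane-bound metalloproteinase, 283, 285 and 344 against 303, 341 and 331, and their score differences by fold were −0.05 and −0.01. None of these 5 was called under all 3 scalings, while *Adamts9* was higher by the median (adjusted p = 0.0202 from limma) and *Adamts16* by the median and quantiles (0.0174 and 0.0200).

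Housekeeping promoters served as a reference. All 8 one-direction genes of the list had a peak in all 6 libraries. Of them limma called 0 by fold (0 also at an unadjusted p under 0.05), by −log10 p or by coverage. Over all regions 0.214 and 0.11% were lower and higher by fold (6.30 and 6.44% unadjusted), 1.12 and 1.05% by −log10 p and 2.74 and 2.07% by coverage, so 0 of 8 says little. The median coverage difference was 0.0052, 0.096 and 0.0044 scaled by library background, median and quantiles, against −0.05, 0.04 and −0.0008 over all regions. *Rplp0* had 660, 614 and 548 tags in GR-con and 649, 639 and 577 in GR-KO, and *Actb* had 692, 687 and 649 against 746, 708 and 702.

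Other promoters with lower coverage were named after their values were seen. They are some of the 35 regions called in all 6 leave-one-out fits, with no set rule for the choice among them. *Hif3a*, a hypoxia-inducible factor subunit, had 393, 387 and 381 tags in GR-con and 204, 196 and 166 in GR-KO, with a local background of 71.7, 77.1 and 66.8 against 27.2, 29.3 and 27.0. *Mfsd2a*, a lysophosphatidylcholine transporter, had 308, 315 and 309 tags against 128, 195 and 166. *Folh1*, which cleaves the transmitter NAAG, had 283, 329 and 233 against 116, 125 and 154, and *Ccnd3*, cyclin D3, had 195, 178 and 165 against 77, 85 and 68. These 4 were clearly separated between the groups, and at *Hif3a* the fold was again higher in GR-KO, at 7.26, 6.50 and 5.96 against 5.42, 4.97 and 5.63. *Phyhd1* was called at both of its regions, at 418, 508 and 332 against 209, 188 and 204 tags and at 271, 278 and 218 against 133, 133 and 132. *Tcim* had 92, 105 and 80 tags against 27, 28 and 35, and *Mettl11b* 294, 304 and 291 against 146, 114 and 159.

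Promoters with higher coverage in all 6 leave-one-out fits, also named after their values were seen, included *Tuba1a*, an alpha-tubulin of developing neurons, in a region shared with *Gm49450*. It had 269, 214 and 237 tags in GR-con and 361, 375 and 364 in GR-KO. *Igdcc4* had 136, 165 and 140 tags against 209, 205 and 243, and *Rnase10* 83, 100 and 102 against 165, 162 and 142. *Olfr9*, one of the few olfactory receptor genes with an open promoter, had 124, 132 and 126 against 234, 229 and 221, with its summit at −527.5 bp from the TSS. *Abca8a*, an ABC transporter, was weakest, at 34, 24 and 38 tags against 60, 70 and 64. All 5 were separated between the groups, and none was called by fold.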

How the data were processed

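Accessibility was measured by OMNI-ATAC-seq in 3 GR-con and 3 GR-KO libraries of V1 astrocyte nuclei at P21. The authors used version 2.2.0 of ENCODE's pipeline for ATAC-seq, with adapters detected automatically, the multimapping option at 0 and a peak p threshold of 0.01, and deposited, per library, peaks on mm10 with a capped score, a fold (ratio of summit to local background), the −log10 of a p-value and the −log10 of a q-value. Read counts were not used here, so the study's count test was replaced by one on ranks. No peak ran beyond its GRCm38 chromosome.

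Peaks were merged at an overlap of 1 bp or more. The strongest peak in each merged region gave its fold. Scores of fold ranks from regions where 2 or more libraries had a peak were compared with limma 3.58.1 (R 4.3.3; variance trend, two-sided, Benjamini-Hochberg) and single values by exact permutation over libraries (Python 3.11.15, scipy 1.17.1, pysam 0.24.0). Replicates are separate pools of mice. Tests were checked on simulated data.

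Members, lists and tests were chosen with earlier results of these data known. Named genes were the promoters called by limma (at most 10, at least 5 per direction), the 5 of highest fold per direction among those with peaks in one group only, the 5 of highest fold percentile, the 5 widest and the listed genes, and others are marked in the text. Summit coverage was solved from (coverage + 1)/(background + 1) = fold and the Poisson p, and scaled by the library-wide background, the median or quantiles. Alternatives were another ranked value, lists cut at a q-value of 0.01 or to one length, other windows and library minimums, a replicate block, no variance trend, autosomes only and leaving out each library. A few genes and promoter sequences that these rules select are not reported here.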

Additional observations from a re-analysis of the deposited data

How the results depend on the processing

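Depth is not known from the peak lists, a region without a peak says only that none was called, and coverage is known only at called summits. Against 6 lower and 4 higher promoters by fold rank, the counts were 42 and 35 ranked by −log10 p. Without a variance trend they were 17 and 12, with no count made over all regions. With the replicate block they were 0 and 0, with 0 calls over all regions. At an unadjusted p under 0.05 the block gave 250 and 533 (2.12 and 4.52%, against 6.17 and 5.98% of all regions). By summit coverage the counts were 128 and 51 (library background), 88 and 442 (median) and 125 and 111 (quantiles). The cause of these changes was not tested. The labels do not say whether libraries of the same replicate number were paired. Correlations of deviations were 0.033, −0.0018 and 0.027 for same-numbered pairs and −0.031 to 0.0039 for the others. Leaving out each library gave 0 to 1 lower and 0 to 0 higher by fold rank, with 0 to 30 calls over all regions. By coverage under 3 scalings it gave 53 to 74 lower and 20 to 42 higher, where all regions were not counted. Promoters with peaks in GR-con only numbered 48 with a 1000 bp window and 39 to 56 without a library, and in GR-KO only 8 (250 bp), 26 (1000 bp) and 23 to 33. All merged regions were not counted under these settings. The mean score difference was −0.000305 by −log10 p and 0.0236 to 0.0382 without a library. The coverage scalings by library background, median and quantiles reversed *Txnip* (−0.11, −0.017, −0.15), *Fkbp5* (−1.01, −0.92, −0.97), *Zbtb16* (−0.51, −0.42, −0.48), *Cntn1* (−0.60, −0.51, −0.55) and *Prom1* (−0.77, −0.68, −0.70), and the first and last reversed *Gpt2* (−0.0038, −0.046) and *Fam213a* (−0.063, −0.087). Ranking by −log10 p reversed *Fkbp5* (−0.31), *Zbtb16* (−0.14), *Cntn1* (−0.21) and *Prom1* (−0.20). Without a library, one-direction minus bidirectional was −6.90 to −6.81 (fold percentile), −4.22 to −3.98 (share with a peak), −83.2 to −82.1 bp (width) and −5.45 to −5.30 points (summits upstream), and against other regions 37.8 to 38.0, 26.5 to 27.4 and 515 to 524 bp, where 5 libraries cannot give a p under 0.0625. The GR-KO minus GR-con share was −0.435 to −0.262 points for TSSs with a peak (−0.140 with lists of equal length) and −0.311 to 0.357 for summits upstream. Leaving out regions shared with bidirectional TSSs removed none.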

Other observations

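A few further promoters among the 83 with lower coverage are given here, named after their values were seen. *Thra*, the thyroid hormone receptor alpha, had 215, 157 and 245 tags in GR-con 1, 2 and 3 and 134, 135 and 129 in GR-KO 1, 2 and 3, and was lost without GR-con replicate 3. *Enpp2* (autotaxin), which makes lysophosphatidic acid, had 245, 239 and 234 against 172, 158 and 191 and stood in only 2 of 6 leave-one-out fits.

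The following were among the 51 with higher coverage, again named after their values were seen. *Dll1*, a Notch ligand, had 79, 55 and 62 tags in GR-con and 97, 109 and 97 in GR-KO and was lost without GR-KO replicate 2. *Fabp7*, a fatty acid binding protein of radial glia, had 275, 256 and 299 against 351, 387 and 329 and stood in 4 of 6 leave-one-out fits, lost without GR-con replicate 2 or GR-KO replicate 2. *Ptn* (pleiotrophin) had 237, 260 and 299 against 338, 357 and 349 and stood in 3, and *Nfib*, a transcription factor of glial development, had 249, 196 and 190 against 272, 263 and 279 and stood in 1. These genes were picked by name, and no count of such genes over the 51 was made.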
